A study of Mus musculus with 12 samples.

Results

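The burning of fatty acids in the mouse heart was followed through 36 genes, which encode the proteins that take up, activate, import and oxidise fatty acids in mitochondria and peroxisomes. They were chosen by name, with every non-control probe of each gene, out of 37074 gene names on the array, and the names were set with earlier results of these data known. The 36 genes had 58 probes, and 55 probes of 35 genes gave enough signal to be tested. *Abcd2*, a peroxisomal transporter, was left out of the tests because neither of its probes was positive and significant on enough arrays of each group, and both were well above background on 0 of 12 arrays. Each gene is described by its brightest tested probe unless another is named.

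The hearts came from 12 male mice of the C57BL6/J strain, 5 months old, and the RNA of each heart muscle was read on 1 single-colour array. The 4 groups held 3 mice each. They were mice without diabetes (C), mice without diabetes given pargyline (C + P), mice made diabetic with streptozotocin (D) and diabetic mice given pargyline (D + P). Streptozotocin, which kills the insulin-producing cells of the pancreas, was injected at 50 mg/kg per day on 5 days, and glucose of at least 17 mM counted as diabetes. Pargyline, which blocks monoamine oxidase, was given to C + P and D + P for 12 weeks (50 mg/kg per day), while C and D received vehicle. Streptozotocin and lack of insulin therefore act on the whole animal, and no group separates the heart from the rest of the body.

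The heart draws most of its energy from long-chain fatty acids. Fatty acids enter the cell, are joined to coenzyme A, cross the inner mitochondrial membrane as carnitine esters and are shortened by repeated rounds of dehydrogenation, hydration, oxidation and thiolysis, while electrons pass through a flavoprotein to the respiratory chain. Peroxisomes shorten very long and branched chains. Many of these genes are known targets of the fatty acid receptor PPAR alpha, and lack of insulin is known to raise the supply of fatty acids to the heart.

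Some properties of the arrays touch every value below. Of 59305 non-control spots, 23556 to 29231 per array were well above background, and 34 of the 35 tested genes were so on all 12 arrays. Repeated spots of a probe varied by 3.89% to 23.2% in the median, and on 5 arrays the scanner software marked this variation as too large. The 5 were replicate 1 of every group and also replicate 3 of D + P. C and D lay on 1 slide and C + P and D + P on the other, so slide and pargyline cannot be told apart, and mice with and without diabetes lay in different rows of each slide, which means that the row and diabetes cannot be told apart. Nothing in the labels says that mice of a group were housed or treated apart, and with 3 arrays a group their number limits the precision.

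Averaged over pargyline, diabetes went with slightly higher expression of the set, and 0 of the 35 genes passed the adjusted threshold. The averaged change is the mean of D against C and of D + P against C + P, in log2 units. It was above 0 for 25 of 35 genes (71.4%), against 48.4% of all 30862 tested probes. Among the brightest tested probes of 20896 genes, chosen like those of the members, the share was 50.5%. The members' median was 0.12, against -0.01 for all tested probes and 0.0032 for those brightest probes. Their changes ranged from -0.26 for *Acaa1a* to 0.60 for *Cpt1a* among the 35 genes. Under 75th percentile scaling 29 of 35 were above 0, with a median of 0.15. The median was 0.08 without D replicate 2 and 0.18 without D replicate 1. By limma, 0 genes had an adjusted p of at most 0.05, where 0.107% of all tested probes did, and the smallest was 0.123, for *Ech1*. At an unadjusted p under 0.05, 9 genes (25.7%) were higher and 0 lower, where 5.93% of all probes were higher and 5.47% lower. The 9 were *Slc27a1*, *Cpt1a*, *Cpt1b*, *Slc25a20*, *Mlycd*, *Acadl*, *Hadha*, *Decr1* and *Ech1*. With only probes well above background on all 12 arrays, 9 of 34 genes were higher and 0 lower at this limit by limma. Of all such probes 8.61% were higher and 5.7% lower. In whole heart tissue, fewer cells of a type and less RNA per cell cannot be told apart.

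In D against C, 24 of 35 genes were higher, with a median of 0.12, and in D + P against C + P 21 were higher, with a median of 0.19. Under 75th percentile scaling 31 were higher in D against C, with a median of 0.30, and 7 were higher and 0 lower at an unadjusted p under 0.05 by limma (5.99% and 5.66% of all probes), whereas 21 were higher in D + P against C + P. Adjusted for all probes, 0 genes passed in either, where 0.00648% and 0.0454% of all probes did. At an unadjusted p under 0.05 by limma, 3 genes were higher and 1 lower in D against C (5.13% and 5.67% of all probes), and 6 were higher and 0 lower in D + P against C + P (3.67% and 3.79% of all probes). Without D replicate 2, D against C had 1 higher and 2 lower (6.23% and 6.8% of all probes). In D + P against C + P the number higher was 3 without D + P replicate 2 (3.31% of all probes) and 10 without D + P replicate 1 (3.92%). Among probes well above background on all 12 arrays, 3 of 34 genes were higher and 1 lower in D against C (7.68% and 5.64% of such probes). There 8 were higher and 0 lower in D + P against C + P (4.58% and 4.2%). The methods' t-test gave 4 higher and 0 lower in D against C, where 6.74% of all probes were higher and 4.71% lower. It gave 7 higher and 0 lower in D + P against C + P, where 3.33% and 3.22% were. After adjustment 0 passed in each. All 3 D arrays lay above all 3 C arrays for 9 genes (25.7%), where 11.9% of all probes did so, and below them for 1 gene, where 10.4% did. All 3 D + P arrays lay above all 3 C + P arrays for 12 genes (34.3%), where 7.32% of all probes did so, and below them for 0 genes, where 6.57% did.

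Both pairs of groups were apart in the same direction for 4 genes (11.4%), all higher with diabetes, where 1.21% of all probes were higher and 1.29% lower in this way. These 4 were *Cpt1b*, *Mlycd*, *Acadl* and *Ech1*. *Mlycd* falls outside the rule by which genes are named here and was chosen after its values were seen. No array is in both comparisons. Across the 35 genes the changes with diabetes on the vehicle slide and on the pargyline slide had a Pearson correlation of 0.23 and a Spearman correlation of 0.28, against 0.09 and 0.08 across all tested probes. Genes are not independent replicates, and the diabetic arrays of both slides share a row. Of the 35 genes 15 were higher in both comparisons, 5 were lower in both and 15 differed in sign.

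**Figure D1:**
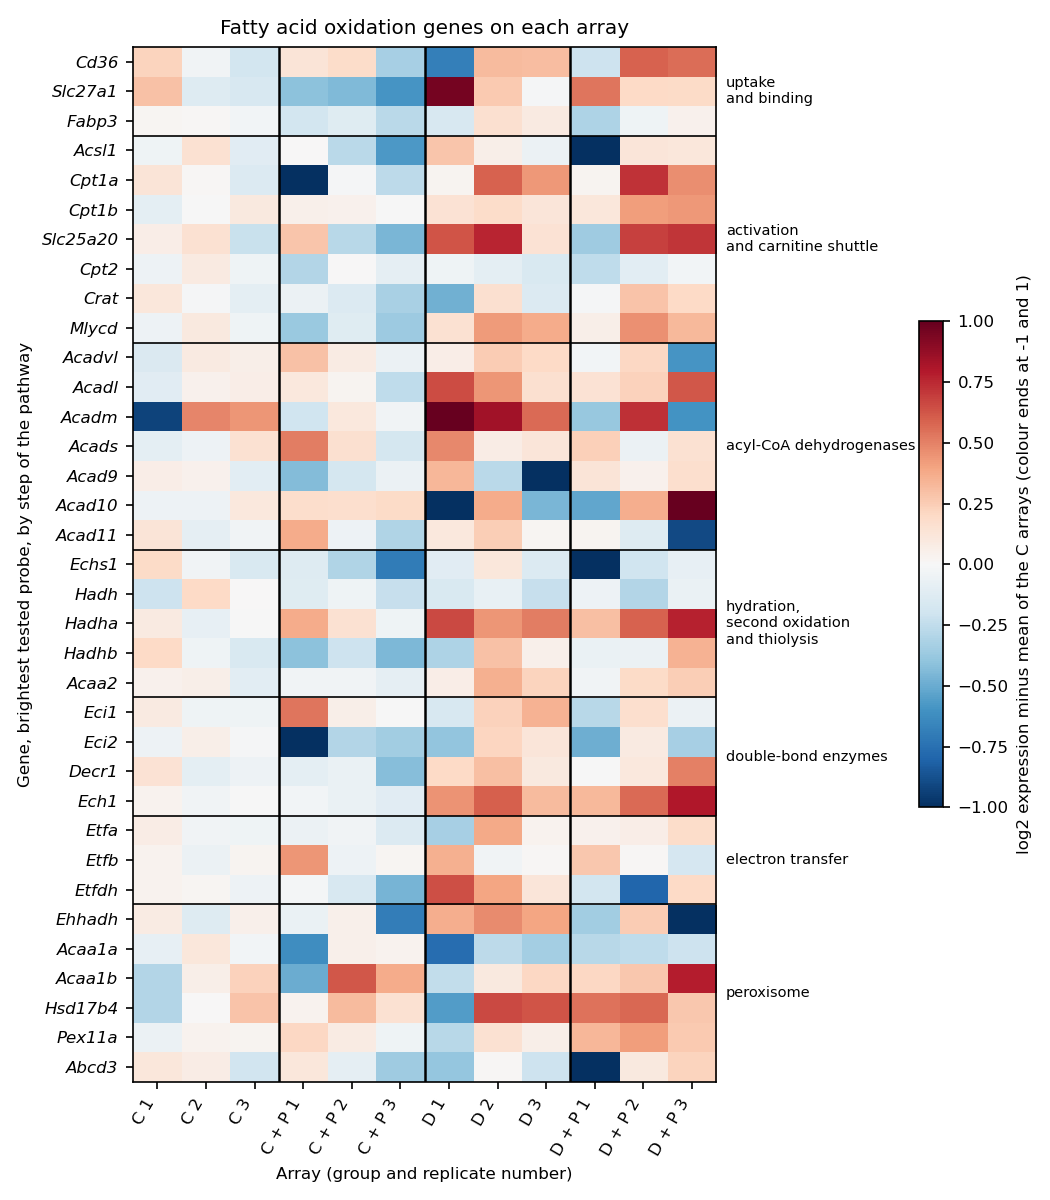
Each row is 1 of the 35 tested genes, grouped by step of the pathway, and each column 1 of the 12 arrays. Colour gives log2 expression minus the mean of the 3 C arrays and the scale ends at -1 and 1. *Ech1* and *Hadha* are above the C mean on all 6 diabetic arrays, whereas *Acadm*, *Acad10* and *Ehhadh* differ widely between arrays of 1 group.

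**Figure D2:**
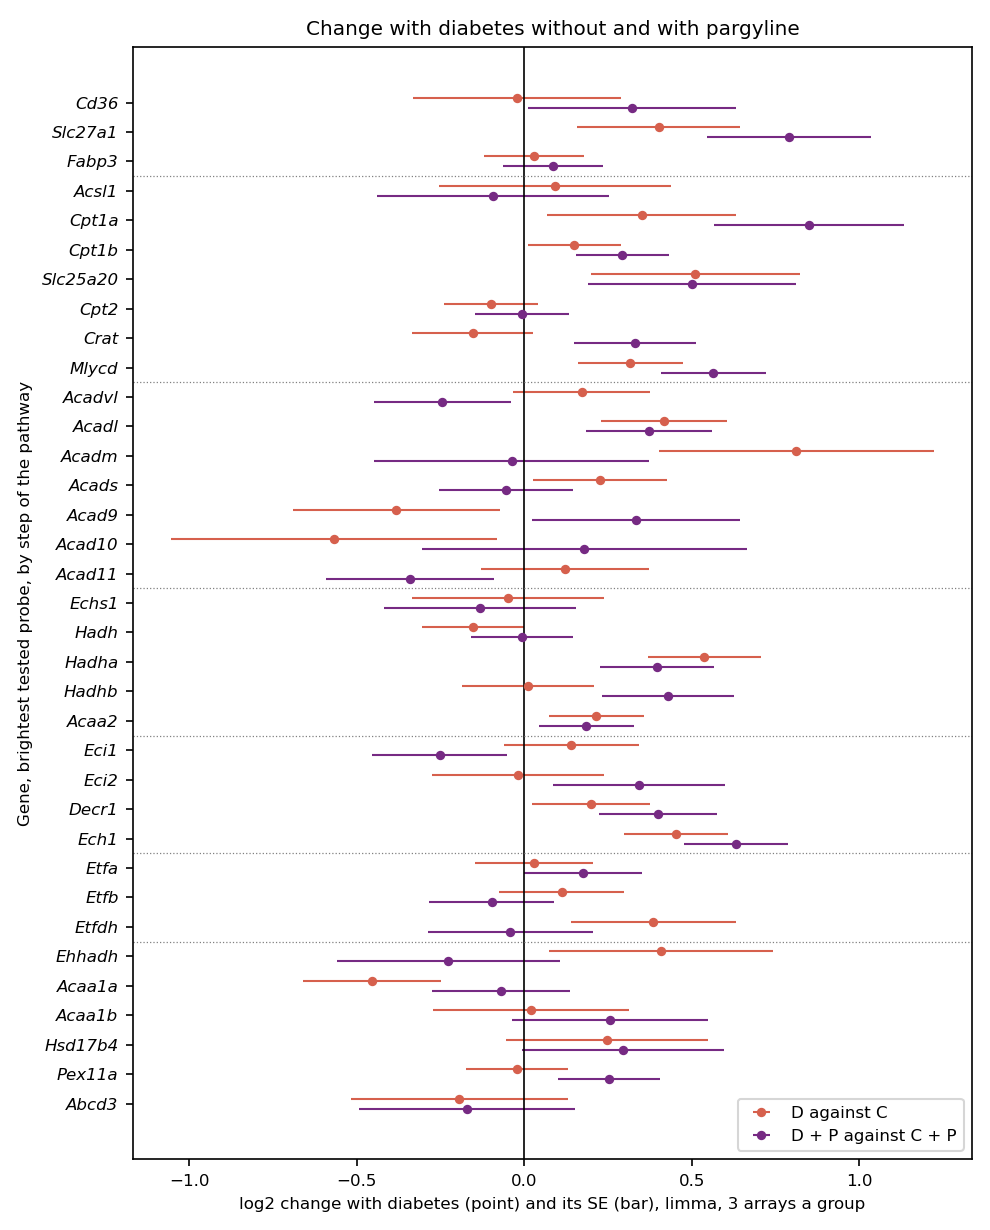
Points give the log2 change with diabetes without pargyline (D against C) and with it (D + P against C + P), and bars the standard error from limma with 3 arrays a group. Both points lie right of 0 for 15 of 35 genes, among them *Ech1* at 0.45 and 0.63 and *Mlycd* at 0.32 and 0.56.

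The letters before the genes were read to see what the set shares beyond its expression. RefSeq windows of 250 bases before to 50 bases after the start of transcription (build GRCm38.p6) were at hand for 29 of the 36 genes, as 33 windows. A PPAR element of direct repeats with 1 base between (AGGNCANAGGNCA) was found on either strand in 0 of 33 windows and in 0.381% of all 32851 windows. An oestrogen-related receptor element (TCAAGGTCA) was found in 0 of 33 and in 0.423% of all. These letters are absent from these windows, which says nothing of sites farther away. The core AAGGTCA, which is part of that receptor element and was searched after its full form had given no match, was in 1 window, that of *Acadm*, and in 4.72% of all. The GC box GGGCGG was in 22 of 33 windows (66.7%), against 35.7% of all windows, and the CCAAT box in 15 (45.5%), against 37.4%. TATAAA was in 0 of 33, against 13.6% of all.

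Windows of 4 genes are printed from 5′ to 3′ on the strand of the gene. *Ech1* is shown because it had the smallest adjusted p, *Hadhb* because it shares its start region with *Hadha*, *Acadm* because it holds the receptor core, and *Cpt1a* because its averaged change was the largest. Capitals mark GC boxes on either strand in *Ech1* and *Cpt1a*, the bases shared with the window of *Hadha* in *Hadhb*, and the core, read on the other strand, in *Acadm*. They lie at chr7:28825088-28825387 (plus strand), chr5:30155003-30155302 (plus strand), chr3:153944594-153944893 (minus strand) and chr19:3323051-3323350 (plus strand).
Ech1: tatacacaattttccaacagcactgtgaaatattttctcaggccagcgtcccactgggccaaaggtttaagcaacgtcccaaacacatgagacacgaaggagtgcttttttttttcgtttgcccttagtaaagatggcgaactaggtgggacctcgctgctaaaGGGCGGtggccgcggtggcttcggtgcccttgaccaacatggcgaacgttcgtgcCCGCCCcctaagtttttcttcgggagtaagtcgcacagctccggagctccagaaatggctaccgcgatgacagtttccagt
Hadhb: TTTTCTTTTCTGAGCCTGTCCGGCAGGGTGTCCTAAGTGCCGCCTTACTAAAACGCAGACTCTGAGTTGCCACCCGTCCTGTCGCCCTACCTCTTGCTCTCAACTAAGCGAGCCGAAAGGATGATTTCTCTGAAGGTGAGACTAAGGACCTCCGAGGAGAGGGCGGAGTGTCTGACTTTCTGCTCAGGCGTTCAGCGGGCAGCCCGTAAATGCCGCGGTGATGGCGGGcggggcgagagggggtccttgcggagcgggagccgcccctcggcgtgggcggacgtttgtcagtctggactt
Acadm: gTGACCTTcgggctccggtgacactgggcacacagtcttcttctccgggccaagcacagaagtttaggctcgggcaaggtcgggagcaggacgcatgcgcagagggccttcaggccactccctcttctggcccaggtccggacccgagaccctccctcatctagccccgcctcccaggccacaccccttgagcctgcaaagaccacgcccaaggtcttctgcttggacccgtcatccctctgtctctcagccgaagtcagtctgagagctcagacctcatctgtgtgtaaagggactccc
Cpt1a: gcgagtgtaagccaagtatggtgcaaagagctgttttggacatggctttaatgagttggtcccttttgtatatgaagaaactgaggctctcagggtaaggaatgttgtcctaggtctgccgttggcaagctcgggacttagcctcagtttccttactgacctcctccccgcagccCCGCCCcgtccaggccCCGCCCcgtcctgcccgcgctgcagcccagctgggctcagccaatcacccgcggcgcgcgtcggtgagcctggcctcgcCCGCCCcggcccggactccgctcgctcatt

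The windows of *Ech1* and *Cpt1a* hold 2 and 3 GC boxes. *Hadha* and *Hadhb*, which encode the alpha and beta chains of the mitochondrial trifunctional protein, start 273 bases apart on opposite strands of chromosome 5 and run away from each other, so that 228 of the 300 bases are in both windows. The array files place the brightest probes in mm9, at chr7:29616863-29617058 for *Ech1*, chr5:30446215-30446274 for *Hadha*, chr5:30510925-30510984 for *Hadhb*, chr3:153585469-153585528 for *Acadm* and chr19:3385374-3385433 for *Cpt1a*, and the files do not say which part of the transcript each meets. In *Acadm* the core starts 249 bases before the first base of the transcript.

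Uptake and binding are covered by 3 genes, and the one with the larger change was *Slc27a1*, which encodes the fatty acid transport protein FATP1. Its log2 expression was 10.29, 9.86 and 9.83 in C, 9.58, 9.55 and 9.41 in C + P, 10.95, 10.26 and 9.98 in D and 10.53, 10.20 and 10.18 in D + P. All 3 D + P arrays were above all 3 C + P arrays, while D and C overlapped because C replicate 1 was high. The averaged change was 0.60 (SE 0.17, adjusted p 0.248), or 1.51-fold. *Cd36*, the main fatty acid translocase of the heart, measured 12.997, 12.74 and 12.59 in C, 12.90, 12.96 and 12.44 in C + P, 12.09, 13.09 and 13.08 in D and 12.57, 13.37 and 13.34 in D + P. Its groups overlapped on both slides, and the lowest of the 12 values was that of D replicate 1, the array with the most variable repeated spots. Averaged over pargyline, the change was 0.15 (SE 0.22, adjusted p 0.823). Leaving out 1 array moved it between 0.07, without D replicate 2, and 0.32, without D replicate 1, and it was 0.55 without the 5 arrays with variable spots. *Fabp3*, the fatty acid binding protein of heart muscle, had an averaged change of 0.06 (SE 0.11).

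Activation and the carnitine shuttle are covered by 7 genes, of which 6 were above 0 in the averaged contrast, with a median of 0.22, and 4 were higher and 0 lower at an unadjusted p under 0.05, where 5.93% of all probes were higher and 5.47% lower. *Cpt1a* and *Cpt1b* encode the liver and muscle forms of carnitine palmitoyltransferase 1, the enzyme that controls entry into mitochondria. *Cpt1a* measured 9.38, 9.26 and 9.12 in C, 8.18, 9.24 and 8.99 in C + P, 9.28, 9.84 and 9.68 in D and 9.28, 9.97 and 9.71 in D + P. The D + P arrays were above the C + P arrays, of which replicate 1 was the lowest of all 12, and D replicate 1 lay within the range of C. Its averaged change was 0.60 (SE 0.20, adjusted p 0.316), or 1.52-fold. It was 0.44 without C + P replicate 1 and 0.37 with normexp background correction. *Ech1* was larger in both, at 0.56 and 0.49.

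*Cpt1b* measured 12.68, 12.77 and 12.87 in C, 12.82, 12.82 and 12.77 in C + P, 12.92, 12.95 and 12.89 in D and 12.89, 13.19 and 13.20 in D + P. The diabetic arrays were above the others on both slides, by small steps. With both slides averaged, the change was 0.22 (SE 0.10, adjusted p 0.428), or 1.17-fold. *Slc25a20*, the carrier that exchanges acylcarnitine for carnitine across the inner membrane, measured 9.07, 9.16 and 8.78 in C, 9.28, 8.72 and 8.54 in C + P, 9.63, 9.76 and 9.15 in D and 8.65, 9.68 and 9.72 in D + P. D replicate 3 lay just within the C range and D + P replicate 1 within the C + P range, and the other 4 diabetic arrays were above both. The averaged change was 0.51 (SE 0.22, adjusted p 0.42), or 1.42-fold.

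*Mlycd* encodes malonyl-CoA decarboxylase, which removes the inhibitor of carnitine palmitoyltransferase 1. It measured 13.19, 13.34 and 13.21 in C, 12.88, 13.13 and 12.89 in C + P, 13.40, 13.67 and 13.62 in D and 13.31, 13.70 and 13.57 in D + P. The groups were apart on both slides, and the averaged change was 0.44 (SE 0.11, adjusted p 0.198), or 1.36-fold. A dimmer probe of the gene gave 0.60 (SE 0.26). The other 3 genes of this step were near 0 in the averaged contrast. *Acsl1*, the main acyl-CoA synthetase of the heart, had a change of 0.00 (SE 0.24), *Cpt2*, which frees the acyl group inside the mitochondrion, of -0.05 (SE 0.10), and *Crat*, the carnitine acetyltransferase, of 0.09 (SE 0.13).

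**Figure D3:**
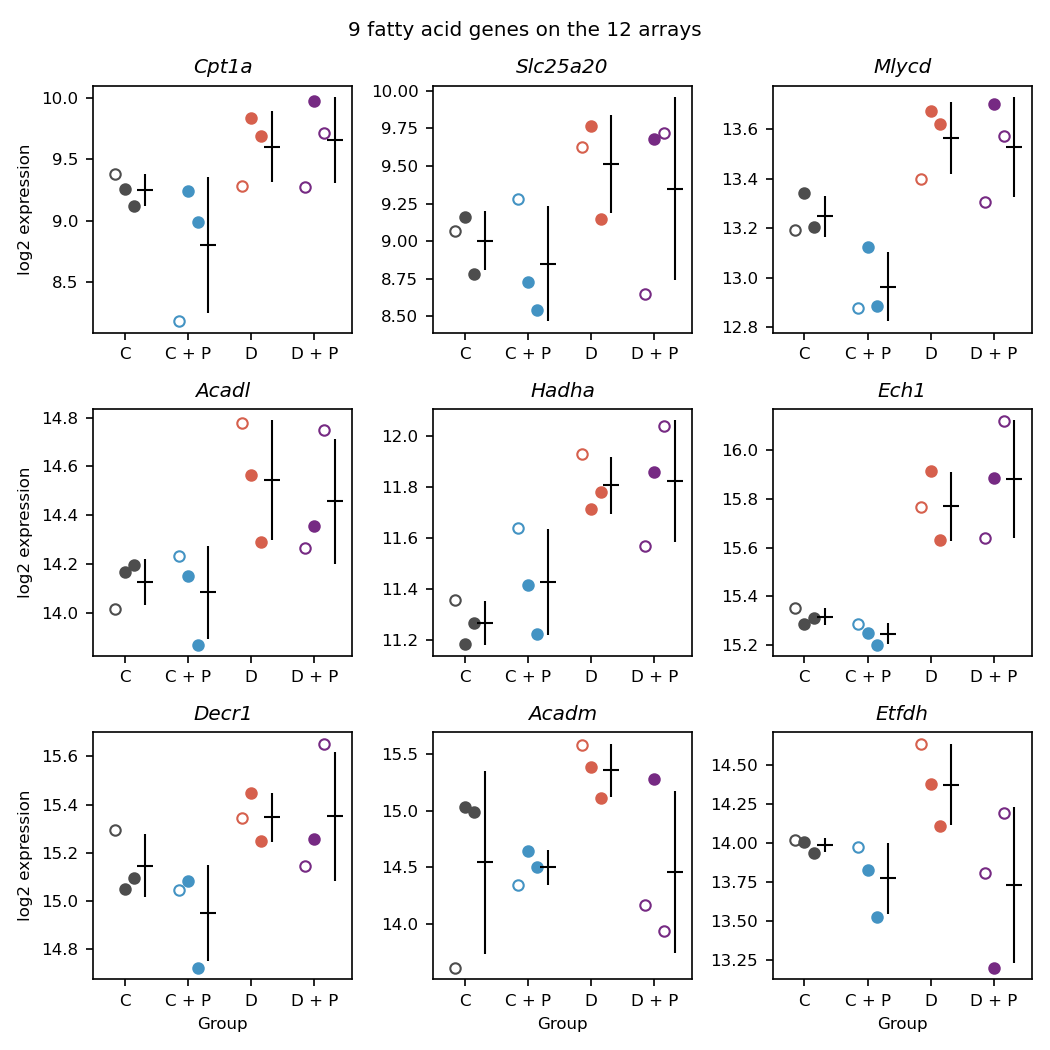
Log2 expression of 9 genes of the set by group, with 1 point per array and the group mean and SD (n = 3) as a dash and bar. Open points are the 5 arrays with repeated spots outside the accepted range. For *Ech1*, *Mlycd* and *Acadl* the diabetic arrays lie above the nondiabetic arrays of the same slide, and for *Acadm* the C arrays span 13.62 to 15.03.

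The acyl-CoA dehydrogenases, which carry out the first oxidation, did not share a direction. In the averaged contrast 3 of 7 were above 0, with a median of -0.02. *Acadl*, the long-chain enzyme, measured 14.02, 14.17 and 14.19 in C, 14.23, 14.15 and 13.87 in C + P, 14.78, 14.56 and 14.29 in D and 14.27, 14.35 and 14.75 in D + P. The groups were apart on both slides, by a narrow margin with pargyline. Averaged over pargyline, the change was 0.40 (SE 0.13, adjusted p 0.318), or 1.32-fold.

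*Acadm*, the medium-chain enzyme, measured 13.62, 15.03 and 14.99 in C, 14.35, 14.65 and 14.51 in C + P, 15.57, 15.38 and 15.11 in D and 14.17, 15.28 and 13.94 in D + P. D was above C on every array, yet C replicate 1 was far below the other C arrays, and D + P replicates 1 and 3 were below all C + P arrays. The change was 0.81 (SE 0.41, adjusted p 0.497) in D against C and -0.04 (SE 0.41, adjusted p 0.987) in D + P against C + P. The low C array and both low D + P arrays are among the 5 with variable repeated spots, and the averaged change of *Acadm* was 0.39 with all 12 arrays and 0.47 without those 5. It was 0.16 without C replicate 1, 0.18 without D + P replicate 2 and 0.14 with normexp background correction.

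*Acad10*, a less studied member of the family, measured 7.33, 7.33 and 7.48 in C, 7.56, 7.55 and 7.57 in C + P, 5.76, 7.75 and 6.92 in D and 6.86, 7.74 and 8.61 in D + P. The 6 arrays without diabetes lay within a narrow range and the diabetic arrays scattered on both sides of it, with D replicate 1 not well above background. *Acad9*, which also helps to assemble respiratory complex I, measured 11.73, 11.70 and 11.55 in C, 11.23, 11.49 and 11.60 in C + P, 11.99, 11.39 and 10.45 in D and 11.79, 11.70 and 11.82 in D + P. Its D + P arrays were above its C + P arrays, while D replicate 3 was the lowest of the 12. The averaged changes were -0.19 (SE 0.34) and -0.02 (SE 0.22). *Acadvl*, the very long-chain enzyme, had a change of -0.04 (SE 0.14), *Acads*, the short-chain enzyme, of 0.09 (SE 0.14), and *Acad11* of -0.11 (SE 0.18).

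Hydration, the second oxidation and thiolysis are covered by 5 genes, 3 of them above 0 in the averaged contrast. *Hadha* measured 11.36, 11.18 and 11.27 in C, 11.64, 11.42 and 11.22 in C + P, 11.93, 11.71 and 11.78 in D and 11.57, 11.86 and 12.04 in D + P. D was above C on every array, and with pargyline D + P replicate 1 alone lay within the range of C + P. With both slides averaged, the change was 0.47 (SE 0.12, adjusted p 0.203), or 1.38-fold. Its partner *Hadhb* measured 15.90, 15.65 and 15.54 in C, 15.29, 15.49 and 15.25 in C + P, 15.39, 15.99 and 15.75 in D and 15.63, 15.64 and 16.04 in D + P. D and C overlapped, and D + P was above C + P on every array. The averaged change of this brightest *Hadhb* probe was 0.22 (SE 0.14, adjusted p 0.577), and the dimmer probes of the gene gave 0.42 (SE 0.12) and 0.60 (SE 0.29). *Acaa2*, the mitochondrial thiolase, had a change of 0.20 (SE 0.10), *Hadh*, the short-chain hydroxyacyl-CoA dehydrogenase, of -0.08 (SE 0.11), and *Echs1*, the short-chain hydratase, of -0.09 (SE 0.20).

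The enzymes that deal with double bonds of unsaturated fatty acids held the gene with the smallest p of the set. *Ech1* encodes dienoyl-CoA isomerase, found in mitochondria and peroxisomes. It measured 15.35, 15.29 and 15.31 in C, 15.29, 15.25 and 15.20 in C + P, 15.76, 15.91 and 15.63 in D and 15.64, 15.88 and 16.12 in D + P. All 6 diabetic arrays were above all 6 others, whose values stayed within 15.20 to 15.35. The change was 0.45 (SE 0.15, adjusted p 0.371) in D against C, 0.63 (SE 0.15, adjusted p 0.303) in D + P against C + P and 0.54 (SE 0.11, adjusted p 0.123), or 1.46-fold, on average. The adjusted p of the averaged change ranged from 0.0179 with array weights to 0.323 over 25 alternatives, and it was 0.0425 among probes well above background on all arrays.

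*Decr1*, the dienoyl-CoA reductase of mitochondria, measured 15.29, 15.05 and 15.10 in C, 15.05, 15.08 and 14.72 in C + P, 15.35, 15.45 and 15.25 in D and 15.15, 15.26 and 15.65 in D + P. The groups were apart with pargyline and overlapped without it, where C replicate 1 was high. The averaged change was 0.30 (SE 0.12, adjusted p 0.404), or 1.23-fold. *Eci2*, an enoyl-CoA isomerase of peroxisomes and mitochondria, measured 13.45, 13.55 and 13.49 in C, 12.38, 13.20 and 13.15 in C + P, 13.10, 13.71 and 13.62 in D and 13.01, 13.59 and 13.16 in D + P. It was lower in C + P than in C on every array, and diabetic arrays overlapped the others on both slides. Averaged over pargyline, the change was 0.16 (SE 0.18), and that of *Eci1*, the mitochondrial isomerase, was -0.06 (SE 0.14).

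Electrons of the dehydrogenases pass through the flavoprotein encoded by *Etfa* and *Etfb* to the dehydrogenase encoded by *Etfdh*. *Etfdh* measured 14.02, 14.01 and 13.94 in C, 13.97, 13.83 and 13.52 in C + P, 14.64, 14.38 and 14.11 in D and 13.81, 13.20 and 14.19 in D + P. D was above C on every array, and D + P scattered around C + P with replicate 2 the lowest of the 12. With both slides averaged, the change was 0.17 (SE 0.17, adjusted p 0.737), and a dimmer probe gave 0.51 (SE 0.15), with 0.48 in D + P against C + P, where the brightest gave -0.04. *Etfa* measured 15.19, 15.08 and 15.07 in C, 15.05, 15.07 and 14.98 in C + P, 14.78, 15.49 and 15.15 in D and 15.15, 15.18 and 15.30 in D + P. D + P was above C + P on every array by small steps, and D replicate 1 was the lowest of the 12. Its averaged change was 0.10 (SE 0.12, adjusted p 0.78), whereas its dimmer probes gave 0.44 (SE 0.16) and 0.52 (SE 0.17). *Etfb* had a change of 0.01 (SE 0.13).

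Of the peroxisomal genes 4 of 6 were above 0 in the averaged contrast, with a median of 0.10. At an unadjusted p under 0.05 by limma there were 0, where 5.93% of all probes were higher and 5.47% lower. *Hsd17b4*, the D-bifunctional protein, measured 11.02, 11.32 and 11.60 in C, 11.34, 11.63 and 11.47 in C + P, 10.75, 11.97 and 11.94 in D and 11.86, 11.89 and 11.58 in D + P. D replicate 1 was the lowest of the 12 and 4 of the other 5 diabetic arrays were above the nondiabetic arrays of their slide. The averaged change was 0.27 (SE 0.21, adjusted p 0.659), with 0.17 without D replicate 2 or D replicate 3 and 0.47 without D replicate 1. *Ehhadh*, the L-bifunctional protein, measured 7.41, 7.20 and 7.39 in C, 7.27, 7.38 and 6.64 in C + P, 7.70, 7.80 and 7.72 in D and 6.98, 7.58 and 6.04 in D + P. D was above C on every array and D + P below D on every array, with D + P replicate 3 far below the rest. The change was 0.41 (SE 0.33) in D against C and -0.23 (SE 0.33) in D + P against C + P.

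*Acaa1a* and *Acaa1b* encode the peroxisomal thiolases. *Acaa1a* measured 13.61, 13.81 and 13.67 in C, 13.08, 13.75 and 13.73 in C + P, 12.94, 13.43 and 13.35 in D and 13.42, 13.44 and 13.49 in D + P. By this probe it was lower in D than in C on every array (-0.46, SE 0.21, adjusted p 0.462), and D + P overlapped C + P. The dimmer *Acaa1a* probe went the other way in D against C (0.33, SE 0.26, adjusted p 0.646), with 9.48, 9.46 and 9.31 in C and 9.58, 9.82 and 9.83 in D, so the gene has no settled direction there. *Acaa1b* measured 9.29, 9.64 and 9.81 in C, 9.09, 10.20 and 9.96 in C + P, 9.34, 9.68 and 9.79 in D and 9.79, 9.85 and 10.37 in D + P, and its groups overlapped on both slides. Averaged over pargyline, the change was -0.26 (SE 0.15, adjusted p 0.53) for *Acaa1a* and 0.14 (SE 0.21, adjusted p 0.827) for *Acaa1b*, and the dimmer *Acaa1a* probe averaged 0.00 (SE 0.18). The pair have similar sequences, so a probe of one may also bind RNA of the other. *Pex11a*, which acts in peroxisome division, had a change of 0.12 (SE 0.11), and *Abcd3*, a transporter of the peroxisomal membrane, of -0.18 (SE 0.23).

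Of the 14 genes with more than 1 tested probe, 8 had averaged changes of 1 sign over all their probes and 6 did not. The 6 were *Cpt2*, *Acad9*, *Acad11*, *Echs1*, *Etfb* and *Acaa1a*. The dimmer tested probes of *Mlycd*, *Hadhb*, *Etfa* and *Etfdh* all gave larger changes than the brightest probe. With the mean of all tested probes of a gene, 27 of 35 genes were higher and 12 were higher and 0 lower at an unadjusted p under 0.05, where 6.2% of 20896 genes were higher, and 0 passed the adjusted threshold by limma.

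**Figure D4:**
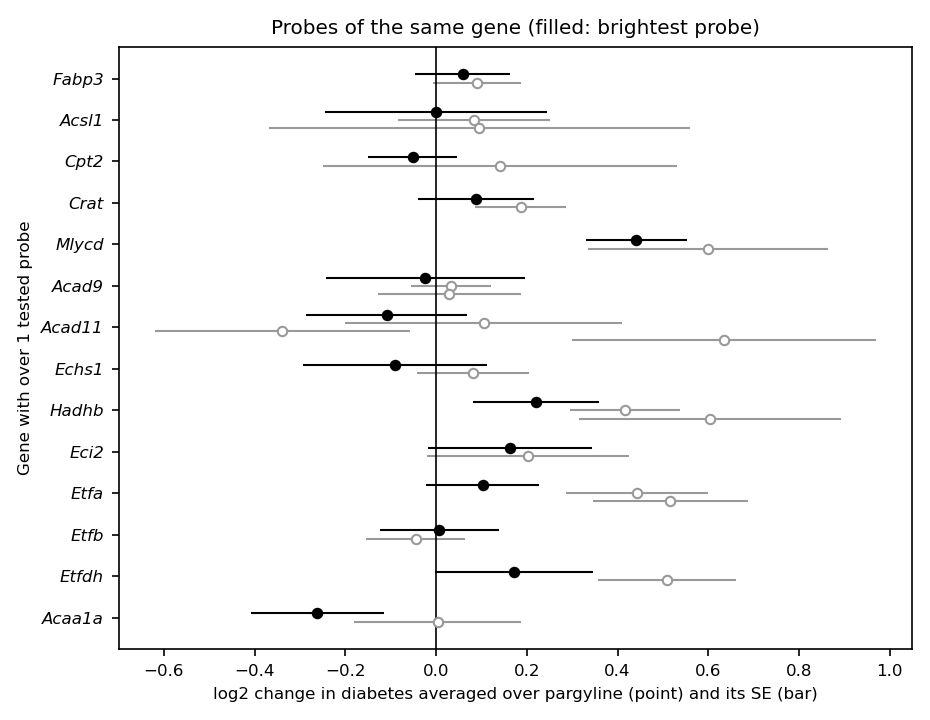
Averaged log2 change with diabetes of every tested probe of the 14 genes with more than 1, with its standard error from limma as a bar. Filled points are the brightest probe of each gene. Open points of *Hadhb*, *Etfa*, *Etfdh* and *Mlycd* lie right of the filled ones, and probes of *Acad11* run from -0.34 to 0.63.

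Each array can be placed by the median over the 35 genes of its deviation from the C mean. It was 0.04, 0.01 and -0.04 on the C arrays, -0.04, -0.04 and -0.23 on C + P, 0.06, 0.26 and 0.12 on D and -0.03, 0.19 and 0.20 on D + P. The D arrays were above the C arrays and the D + P arrays above the C + P arrays. D + P replicate 1, at -0.0308, was only just above C + P replicates 1 and 2, at -0.0364 and -0.0371. Of the 5 arrays with variable repeated spots, D replicate 1 and D + P replicate 1 were the lowest of their groups, and C replicate 1, C + P replicate 1 and D + P replicate 3 the highest of theirs. Without those 5 arrays 29 of 35 genes were higher in the averaged contrast, with a median of 0.25. D + P is then a single array, so no count of p-values is given. Without the arrays in column 1 of the slides, which are replicate 1 of C + P, D and D + P, 29 genes were higher, with a median of 0.21, and 13 were higher and 1 lower at an unadjusted p under 0.05 by limma, where 9.37% and 10% of all probes were. Both settings were chosen after seeing the data.

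**Figure D5:**
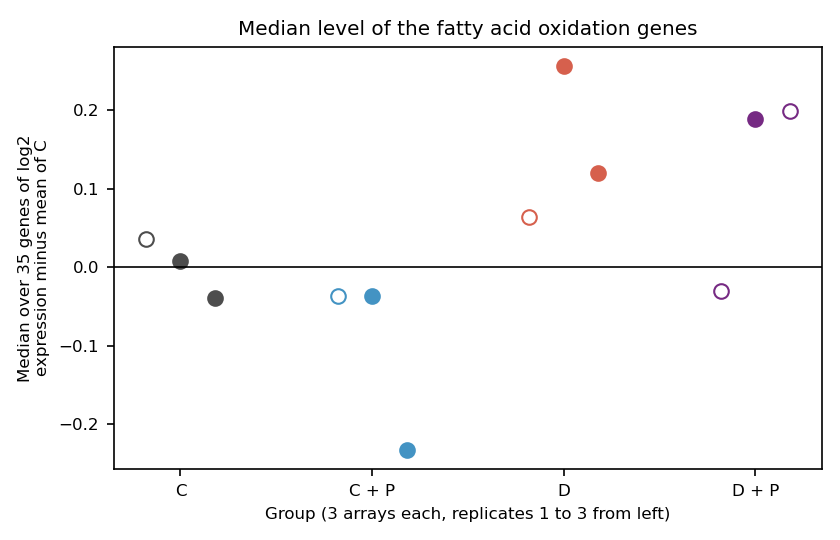
Median over the 35 genes of log2 expression minus the mean of the C arrays, with 1 point per array and replicates 1 to 3 from left to right in each group. Open points are arrays with repeated spots outside the accepted range. The D points lie at 0.06 to 0.26, above the C points, and D + P spans -0.03 to 0.20.

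C + P against C and D + P against D asked whether pargyline moved the genes, with slide not separable from it. In C + P against C, 11 of 35 genes were higher, with a median of -0.11, which was 0.02 under 75th percentile scaling, where 18 were higher. Without C + P replicate 3 the median was -0.05, with 15 genes higher. In D + P against D, 16 were higher, with a median of -0.04, and 9 were higher under 75th percentile scaling, with a median of -0.14. Without D + P replicate 1, 22 were higher, with a median of 0.07. By limma, 0 genes passed after adjustment in either, where 0.0324% and 0% of all probes did, and at an unadjusted p under 0.05 there were 1 and 3 genes (4.43% and 13.3% of all probes). The methods' t-test had 4 and 0 genes at an unadjusted p under 0.05 (7.69% and 8.34% of all probes), and 0 in each after adjustment. The groups were apart for 6 genes in C + P against C (17.1%, where 15.4% of all probes were) and for 2 in D + P against D (5.71%, where 17.0% were). Of the 6, *Acad10* was higher in C + P and *Slc27a1*, *Fabp3*, *Mlycd*, *Hadhb* and *Eci2* were lower. Dimmer probes of *Fabp3* and *Hadhb* gave 0.04 (SE 0.14) and 0.30 (SE 0.41) in that contrast, and the third *Hadhb* probe -0.13 (SE 0.17). Of the 2, *Pex11a* was higher in D + P and *Ehhadh* lower. *Fabp3* and *Pex11a* are named here after the fact, because their groups were apart.

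The 3 largest changes in C + P against C were those of *Eci2* (-0.59, SE 0.26), *Slc27a1* (-0.48, SE 0.24) and *Cpt1a* (-0.45, SE 0.28), each with an adjusted p of 1. Without C + P replicate 1 that of *Cpt1a* was -0.13 and that of *Eci2* -0.32. The dimmer *Eci2* probe gave -0.0037 (SE 0.31), and the mean of both probes -0.29. The 3 largest in D + P against D were those of *Acad10* (0.92, SE 0.49, adjusted p 0.429), *Acadm* (-0.89, SE 0.41, adjusted p 0.384) and *Ehhadh* (-0.87, SE 0.33, adjusted p 0.303). That of *Acad10* was 0.40 without D replicate 1, 0.49 without D + P replicate 3 and 1.39 without D replicate 2. Without D + P replicate 3 that of *Ehhadh* was -0.46, and without the 5 arrays with variable spots that of *Acadm* was 0.04.

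The interaction asked whether the effect of diabetes differed with pargyline, and is the change in D + P against C + P minus that in D against C. It was above 0 for 21 of 35 genes, with a median of 0.09, and for 12 genes under 75th percentile scaling, with a median of -0.13. By limma, 0 genes passed after adjustment, where 0.00648% of all probes did, with 0 at an unadjusted p under 0.05, where 7.03% of all probes were. The largest differences were those of *Acadm* (-0.85, SE 0.58, adjusted p 0.764), *Acad10* (0.75, SE 0.69, adjusted p 0.819) and *Acad9* (0.72, SE 0.44, adjusted p 0.755). Without C replicate 1 that of *Acadm* was -0.39, leaving out 1 array moved that of *Acad10* between 0.22, without D replicate 1, and 1.22, without D replicate 2, and without D replicate 3 that of *Acad9* was 0.30. The brightest *Acad9* probe is assigned to an Ensembl transcript, and the dimmer probes, assigned to the RefSeq transcript, gave -0.05 (SE 0.18) and -0.02 (SE 0.31), with 0.22 for the mean of the tested probes.

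Other genes of fatty acid handling were taken from a list of 39, of which 37 were tested. In the averaged contrast 23 were above 0, with a median of 0.09. *Acot2*, a mitochondrial thioesterase that splits long-chain acyl-CoA, measured 11.10, 11.29 and 11.48 in C, 11.63, 11.44 and 11.14 in C + P, 11.33, 12.26 and 12.05 in D and 11.36, 12.56 and 12.47 in D + P. On both slides replicate 1 of the diabetic group lay within the range of the nondiabetic arrays and the other 2 above it. Its averaged change was 0.66 (SE 0.24, adjusted p 0.351), and it ran from 0.55 to 1.04 over 25 alternatives. *Acsl3*, an acyl-CoA synthetase, was well above background on 0 of 3 C arrays and 2 of 3 D arrays. It measured 4.60, 4.95 and 4.92 in C and 6.11, 5.10 and 5.88 in D. With C values raised to at least the lowest signal well above background on each array, the mean of D was 1.75-fold that of C. This bound leaves out the spread between arrays, and the adjusted p was 0.512. Its averaged change ran from 0.33 to 1.18 over the alternatives. In the tricarboxylic acid cycle, which burns the acetyl-CoA made by these enzymes, 8 of 18 genes were above 0, with a median of -0.01. By limma 0 passed in the averaged contrast, where 0.107% of all probes did. At an unadjusted p under 0.05 there were 0, where 5.93% of all probes were higher and 5.47% lower. The largest changes were those of *Ogdh* (-0.28, SE 0.25, with D replicate 1 missing because of an outlier flag), *Idh2* (0.28, SE 0.19) and *Suclg1* (0.27, SE 0.13). That of *Ogdh* was -0.06 without D + P replicate 3, that of *Idh2* 0.11 without C + P replicate 1, and that of *Suclg1* 0.03 without the 5 arrays with variable spots.

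Markers of the cells in the tissue were read beside these values. The 6 cardiomyocyte markers were well above background on all 12 arrays, and 3 of 6 were above 0 in the averaged contrast, with a median of -0.03. *Ryr2*, the calcium release channel and a member of that list chosen after its values were seen, measured 13.44, 13.81 and 13.54 in C, 13.75, 13.41 and 13.36 in C + P, 11.83, 12.99 and 12.62 in D and 12.18, 12.89 and 12.90 in D + P. All 6 diabetic arrays were below all 6 others, and the averaged change was -0.99 (SE 0.21, adjusted p 0.141). The 5 endothelial markers had a summed intensity of 10600 to 12800 in C, 11100 to 14100 in C + P, 9850 to 11900 in D and 12800 to 16300 in D + P. The sum in D + P lay above that in D. Taken singly, D + P was above D on every array for *Kdr*, the brightest of the list, and for *Tie1*. D + P and D overlapped for *Cdh5*, *Pecam1* and *Vwf*. Of the 6 adipocyte markers 1 was well above background on all 12 arrays, and *Adipoq*, *Plin1*, *Cidec* and *Retn* were so on 0 arrays. *Lep* measured 6.65 to 8.06 and *Cfd* 4.04 to 6.93 over the 12 arrays. Among brown adipocyte markers *Ucp1* and *Elovl3* were well above background on 0 arrays. *Cidea*, the other brown adipocyte marker, was well above background on all arrays. The summed level of that list, nearly all of it *Cidea*, was 4740 to 5050 in C and 5040 to 5550 in C + P. It was 5770 to 6930 in D and 5700 to 6940 in D + P. These sums describe 1 gene and give no measure of brown fat. Macrophage and other leukocyte markers were lower with diabetes for 5 of 5 genes (median -0.46, smallest adjusted p 0.268), and their summed intensity was 19200 to 22100 in C, 19100 to 28200 in C + P, 15800 to 18000 in D and 13400 to 16900 in D + P. The part of these shifts in the values of the fatty acid oxidation genes was not tested.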

How the data were processed

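Messenger RNA of 12 mouse hearts was labelled with Cy3 from 200 ng of RNA and hybridised to single-colour Agilent SurePrint arrays. The deposited scanner files hold the authors' Feature Extraction output, in which the processed signal is a background-subtracted intensity with no normalisation between arrays. Their headers give version 12.0.0.7 for grid placement, whereas the paper names an earlier version of the software. The deposited series table holds the authors' quantile-normalised intensity values on a linear scale and served as an alternative. No column of the authors' own comparisons was used. Probe coordinates in the file headers refer to mm9, and the printed sequences to GRCm38.p6.

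The processed signals were converted to log2, flagged outlier spots were set to missing, the 12 arrays were quantile normalised and repeated spots of a probe were then averaged. A probe entered the tests if, in each of the 4 groups, 50% or more of the arrays called it positive and significant, which left 30862 of 56605 probes. Groups came from the labels, and 1 linear model over the 4 groups was fitted (limma 3.58.1, R 4.3.3), with Benjamini-Hochberg adjustment over all tested probes and a threshold of 0.05. Averages, group contrasts and the interaction came from that model. The smallest two-sided exact p of 3 against 3 arrays is 0.1, so no permutation p is given. Values on each array were given for members with an adjusted p of at most 0.05, the 2 with the largest averaged change in each step, the 3 with the largest change in each pargyline contrast and the interaction, and 2 pairs of related genes. The members and lists were chosen with earlier results of these data known. Alternatives covered scaling, background correction, filters, probe choice, array weights, slide and replicate blocks, the methods' t-test and leaving out each array. The fit was tested on simulated data. A further result is not reported here. Figures were drawn with matplotlib 3.10.9.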

Additional observations from a re-analysis of the deposited data

How the results depend on the processing

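The 12 counts and medians and the 31 single-gene changes were recomputed under 28 settings, and 26 of those 31 changes, which belong to 26 genes, kept their direction in all that were run. In 22 of the 26 genes no change reversed. Under 75th percentile scaling the median of the 35 genes was 0.30 in D against C, 0.0206 in C + P against C and -0.127 in the interaction. With array weights 2 members, *Hadha* and *Ech1*, passed in the averaged contrast, where 397 probes passed in place of 33, and among probes well above background on all 12 arrays 1 did, *Ech1*, of 83. When 1 array was left out, the averaged median ran from 0.076 to 0.18 and that of C + P against C from -0.129 to -0.0465. The median ran from -0.0972 to 0.0732 for D + P against D and from 0.0471 to 0.273 for the interaction, highest in both without D + P replicate 1. The averaged change ran from 0.0174 to 0.195 for *Etfa* and from 0.0586 to 0.307 for *Etfdh*. Without the 5 arrays with variable repeated spots, a setting chosen after seeing the data, the median was 0.33 in D + P against C + P and 0.25 on average. There *Acadm* was 0.0367 for D + P against D and 0.456 for the interaction, and the averaged change was -0.10 for *Etfdh*, 0.0895 for *Ogdh* and -0.11 for *Acaa1b*. *Acaa1b* was also -0.0172 with array weights, -0.051 with normexp correction and -0.0264 without C + P replicate 1. The causes were not tested.

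With the replicate number as a block, the averaged median stayed 0.12, and 0 members and 4 of all probes passed. Arrays with the same number did not pair, since their deviations correlated by -0.204 to 0.2. The array signal over background limits *Abcd2*, *Acad10* and *Acsl3*.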
